A study of Homo sapiens with 60 samples.

Results

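YAP1, BIRC3 and BIRC2 lie side by side on the long arm of chromosome 11, and the locus described here was the 600 kb around them, chr11:101800000-102400000 on GRCh37. Its members were all deposited CUT&RUN peaks that overlapped this interval, whatever their score. There were 301 of them among 507516 peaks in 24 peak lists. RAD21 gave 74, PDS5A 76, H3K27Ac 145 and IgG 6. The interval was set by position and not by a score, but it was chosen with earlier results of these data known. On GRCh37, YAP1 spans chr11:101981192-102104154, BIRC3 spans chr11:102188181-102210135 and BIRC2 spans chr11:102217966-102249401, all on the plus strand. Overlapping peaks of all lists merged into 54 sites, with widths from 304 to 4124 bp and a median of 1044.5 bp.

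The cells were PC9, a human lung adenocarcinoma line that carries an activating EGFR mutation. WT cells were unmodified PC9, KO cells had METTL7A, a methyltransferase-like protein, knocked out, and Rescue cells were the KO cells made to overexpress METTL7A with MYC and FLAG tags. Each genotype was either untreated or treated with osimertinib, an EGFR inhibitor, in doses escalated from 100 nM during 6 to 8 weeks. All cells were thus 1 line, and whether the KO and Rescue cells were clones or pools was not given in the sources used here. CUT&RUN uses an antibody to direct a nuclease to chromatin, and the cut fragments are sequenced. H3K27Ac is an acetylated histone mark of active promoters and enhancers, RAD21 is a core subunit of the cohesin ring, PDS5A is a regulator bound to that ring, and IgG is the background control. Each list joined the 2 replicates of a genotype, treatment and antibody, so 48 of the 60 samples stood behind the lists, and the 12 H2A samples were not analysed here. The lists hold no measure of METTL7A and none of DNA copy number, so neither the knockout nor an amplification of the locus could be checked.

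YAP1 encodes the transcriptional coactivator that the Hippo kinase cascade restrains: phosphorylated YAP1 stays in the cytoplasm, and unphosphorylated YAP1 enters the nucleus and binds TEAD transcription factors. BIRC2 and BIRC3 encode the inhibitor of apoptosis proteins cIAP1 and cIAP2, ubiquitin ligases that act with TRAF2, ubiquitinate RIPK1 and restrain non-canonical NF-kappa-B signalling. BIRC3 is itself a well-known target gene of NF-kappa-B. The 3 genes are amplified together in a number of carcinomas, and YAP1 with TEAD has been described as a survival route of EGFR-mutant lung cancer cells under EGFR inhibitors.

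The promoters of the 3 genes are shown because each gene start carried the peaks described first. Each sequence is the 250 bases before the gene start in RefSeq on GRCh38.p14, plus strand, 5′ to 3′, with matches to the searched motifs in capitals (TEAD and SP in YAP1, kappa-B in BIRC3). The intervals are chr11:102110197-102110446 for YAP1, chr11:102317234-102317483 for BIRC3 and chr11:102346964-102347213 for BIRC2. These are positions on another build than the peaks, so no peak was placed on individual bases.
YAP1: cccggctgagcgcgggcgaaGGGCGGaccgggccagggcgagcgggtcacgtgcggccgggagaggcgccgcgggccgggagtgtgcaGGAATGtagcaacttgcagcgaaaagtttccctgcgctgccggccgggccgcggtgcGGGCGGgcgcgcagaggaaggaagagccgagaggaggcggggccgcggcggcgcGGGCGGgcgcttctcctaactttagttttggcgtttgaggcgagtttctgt
BIRC3: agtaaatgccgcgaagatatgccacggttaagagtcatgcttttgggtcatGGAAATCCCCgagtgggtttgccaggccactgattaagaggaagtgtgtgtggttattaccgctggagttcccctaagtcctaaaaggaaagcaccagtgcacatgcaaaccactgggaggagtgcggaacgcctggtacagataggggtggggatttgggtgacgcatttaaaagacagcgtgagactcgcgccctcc
BIRC2: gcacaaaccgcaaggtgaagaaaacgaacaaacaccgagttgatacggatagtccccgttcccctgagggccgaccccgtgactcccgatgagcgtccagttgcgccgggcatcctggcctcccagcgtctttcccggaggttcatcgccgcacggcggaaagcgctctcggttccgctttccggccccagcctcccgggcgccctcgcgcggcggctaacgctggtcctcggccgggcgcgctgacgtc

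The motifs searched on both strands were GGAATG of the TEAD factors, TGANTCA of AP-1, the kappa-B motif of NF-kappa-B, GGGCGG of the SP factors and AGGGGGC from the core of the CTCF motif. The YAP1 promoter held 1 TEAD match, 162 to 157 bases before the start, and 3 SP matches. The BIRC3 promoter held 1 match to these kappa-B letters, on the minus strand 199 to 190 bases before the start and therefore printed as GGAAATCCCC. The BIRC2 promoter held none of the 5 motifs in this window. Of 35116 RefSeq promoter windows of the same length, 11.9% held the TEAD letters, 6.57% those of AP-1, 1.73% a kappa-B match, 42.6% those of SP and 13.3% those of CTCF. GC content was 72.0% for YAP1, 67.6% for BIRC2 and 52.4% for BIRC3, against a median of 58.0% over all windows. The YAP1 window held 36 CpG dinucleotides and the BIRC2 window 33, while BIRC3 held 11, the median of all windows. A match is a description of the letters and not evidence of a bound factor.

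Peaks are reported with the values the authors deposited. These are the −log10 p of the peak in each of the 2 replicates and the global irreproducible discovery rate (IDR). The IDR is low when a peak ranks high in both replicates. A weak peak can have a high IDR even where its 2 replicate values are alike. A peak is written here as called when its global IDR was 0.05 or less. The −log10 p is the authors' own, depends on a depth that is unknown, and places a peak only among the peaks of its own list. Leaving out IgG, the lists held 9232 to 45234 peaks, and the IgG lists held 167 to 7612, so counts in the locus are set beside the length of each list. Separate cultures are stated for the replicates in no source, so their spread may be technical.

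All 3 gene starts carried H3K27Ac, RAD21 and PDS5A peaks within 1 kb in all 18 lists of these antibodies. Of those 18 lists, the peak was called in 14 at the BIRC2 start, 11 at the YAP1 start and 9 at the BIRC3 start. For H3K27Ac the calls were 5 of 6 lists at BIRC2, 4 of 6 at YAP1 and 4 of 6 at BIRC3, where 21.7% to 36.6% of each whole list was called. The shares called in whole lists were, for H3K27Ac, 22.6% in untreated WT, 23.1% in treated WT, 23.2% in untreated KO, 21.7% in treated KO, 36.6% in untreated Rescue and 29.3% in treated Rescue cells. RAD21 differed most between the starts, with calls in 6 of 6 lists at YAP1, 5 of 6 at BIRC2 and 2 of 6 at BIRC3, where 23.8% to 42.9% of each whole RAD21 list was called. PDS5A, by contrast, was called in 1 of 6 lists at YAP1, 3 of 6 at BIRC3 and 4 of 6 at BIRC2, where 9.87% to 42.2% of each whole PDS5A list was called. Calls at gene starts were not compared with the whole lists by a test.

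At the YAP1 start the H3K27Ac replicates gave a −log10 p of 10.9 and 54.6 in untreated WT, 17.9 and 26.8 in treated WT, 74.9 and 50.8 in untreated KO, 4.88 and 73.7 in treated KO, 75.2 and 79.7 in untreated Rescue, and 78.5 and 81.9 in treated Rescue cells. In untreated WT and in treated KO cells, where the peak was uncalled, 1 replicate was far below the other, and in the other 4 lists it was called. By the lower of the 2 replicate values it stood in the top 0.342% of its list in untreated KO, the top 0.197% in untreated Rescue and the top 0.327% in treated Rescue cells. It stood only in the top 29.7% in untreated WT, 9.06% in treated WT and 78.3% in treated KO cells. The treated KO replicates differed 15.1-fold in −log10 p, and 0.0816% of the peaks in that list differed 10-fold or more.

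RAD21 at the YAP1 start was called in all 6 lists, one of 2 sites of the locus with that property. Its replicates gave 77.1 and 17.8 in untreated WT, 61.1 and 22.6 in treated WT, 53.1 and 28.4 in untreated KO, 21.4 and 18.03 in treated KO, 56.4 and 49.1 in untreated Rescue, and 50.4 and 37.4 in treated Rescue cells. The first replicate was the higher in all 6 lists, and both replicates were above 17 in each. Over the whole RAD21 lists the median log2 ratio of the first to the second replicate ran from -0.36 in treated KO to 1.498 in untreated WT cells. For PDS5A, the strongest peak gave 9.39 and 15.4 in untreated WT, 44.5 and 5.66 in treated WT, 8.56 and 8.80 in untreated KO, 11.4 and 15.3 in treated KO, 10.8 and 25.9 in untreated Rescue, and 40.5 and 13.5 in treated Rescue cells, the only list with a call. In untreated WT and in both KO lists PDS5A was split into 2 peaks across this start. The IgG list of treated WT cells also held a peak here, uncalled, with 6.13 and 5.54.

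At the BIRC3 start the H3K27Ac replicates gave 17.3 and 15.2 in untreated WT, 6.29 and 23.5 in treated WT, 11.1 and 10.2 in untreated KO, 21.4 and 12.5 in treated KO, 30.1 and 21.1 in untreated Rescue, and 45.1 and 38.4 in treated Rescue cells. Calls were missing in treated WT and in untreated KO cells. In treated WT cells a separate uncalled H3K27Ac peak lay 0.679 kb before the start. Neither cohesin protein was called at BIRC3 in a KO list. RAD21 gave 27.9 and 7.41 in untreated WT, 53.5 and 27.3 in treated WT, 7.23 and 14.9 in untreated KO, 17.3 and 4.73 in treated KO, 43.9 and 7.13 in untreated Rescue, and 62.3 and 27.1 in treated Rescue cells, with calls only in treated WT and treated Rescue cells. PDS5A gave 6.36 and 20.8 in untreated WT, 25.6 and 22.7 in treated WT, 5.48 and 11.5 in untreated KO, 13.9 and 13.6 in treated KO, 46.6 and 21.0 in untreated Rescue, and 59.5 and 28.9 in treated Rescue cells. It was called in treated WT and in both Rescue lists. The treated KO peak had a global IDR of 0.0826, with replicates nearly equal, and stood in the top 19.6% of its list. IgG peaks lay here in both WT lists, uncalled, with 3.06 and 4.74 untreated and 5.58 and 6.80 treated.

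The BIRC2 start had the most calls of the 3 genes. H3K27Ac gave 22.7 and 22.1 in untreated WT, 6.75 and 32.4 in treated WT, 15.7 and 15.4 in untreated KO, 32.4 and 24.4 in treated KO, 31.3 and 46.0 in untreated Rescue, and 30.7 and 24.9 in treated Rescue cells. The uncalled list was treated WT, as at BIRC3. RAD21 gave 58.6 and 19.7 in untreated WT, 73.4 and 31.6 in treated WT, 34.7 and 5.35 in untreated KO, 36.7 and 50.8 in treated KO, 69.7 and 47.6 in untreated Rescue, and 106 and 33.3 in treated Rescue cells, and was called in all but untreated KO cells. PDS5A gave 24.02 and 23.7 in untreated WT, 74.9 and 26.3 in treated WT, 10.1 and 27.4 in untreated KO, 38.8 and 31.1 in treated KO, 68.4 and 73.0 in untreated Rescue, and 99.4 and 4.08 in treated Rescue cells. It was called in 4 lists and missed in untreated KO and treated Rescue cells. The treated Rescue replicates differed 24.4-fold, a gap of 10-fold or more that 1.34% of that list shared. IgG peaks overlapped this start in treated KO cells, with 11.3 and 6.90, and in untreated Rescue cells, with 8.89 and 6.39, both uncalled.

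**Figure D1:**
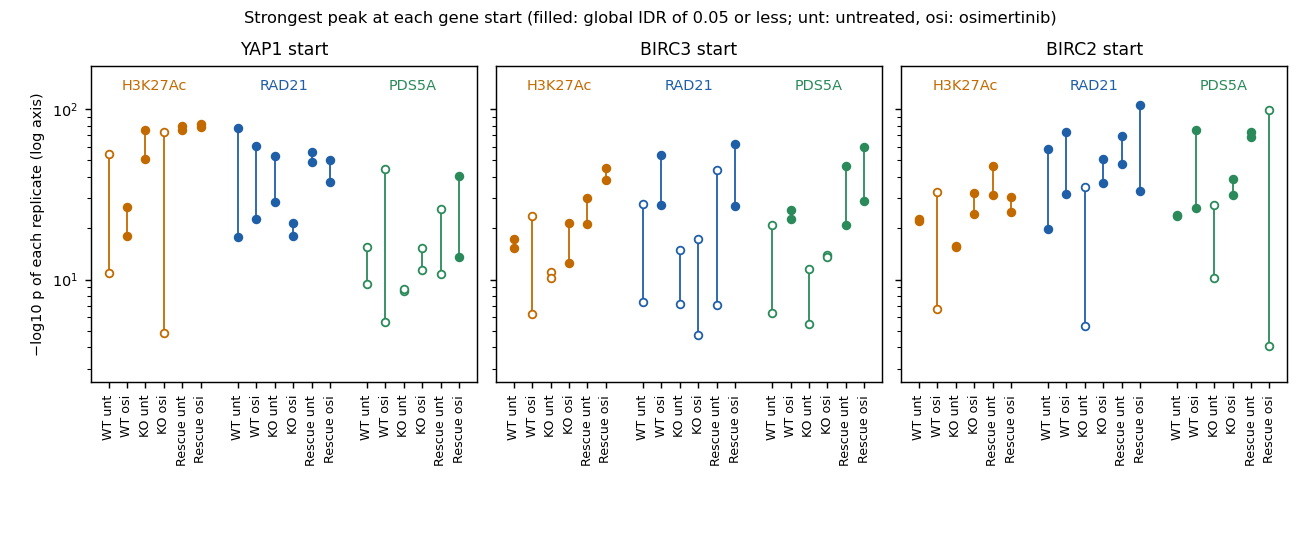
The strongest peak at each gene start is drawn per list, with the −log10 p of both replicates on a log axis as 2 points joined by a line (filled, global IDR of 0.05 or less; open, above it). Open pairs with 1 low point, such as 4.88 and 73.7 for H3K27Ac at YAP1 in treated KO cells, have 1 low replicate; values may be compared only within a list.

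The YAP1 gene body was an H3K27Ac region almost without cohesin. Beyond the start it held 18 H3K27Ac sites with 52 peaks, while RAD21 had 3 peaks and PDS5A 1 peak, all uncalled and all at 1 site. The H3K27Ac peaks numbered 7 in untreated WT, 5 in treated WT, 5 in untreated KO, 7 in treated KO, 16 in untreated Rescue and 12 in treated Rescue cells. Calls numbered 0 in both WT lists and in untreated KO, 1 in treated KO and 4 in each Rescue list. Rescue cells thus had the most H3K27Ac peaks in YAP1, and their lists were also called most often as a whole (36.6% untreated and 29.3% treated). The whole WT lists were called at 22.6% untreated and 23.1% treated, and the KO lists at 23.2% and 21.7%. In the YAP1 body, 4 of 16 untreated and 4 of 12 treated Rescue peaks were called, which was not compared with these shares by a test. Shares of the list given further on are for the whole locus. Over the 3 genes together, starts included, the log2 ratio of the Rescue share over WT was 0.06 untreated and 0.50 treated. Over KO it was 0.41 untreated and 0.33 treated. No interval was computed for these, and none was run for YAP1 alone.

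Within YAP1, H3K27Ac lay 46.1 kb past the gene start in all 6 lists (chr11:102027316-102030184) and was called in both Rescue lists, with 14.97 and 27.7 untreated and 11.9 and 13.3 treated. The other site present in all 6 lists, 27.5 kb past the start (chr11:102008649-102010479), was called in treated Rescue cells only, with 16.7 and 11.9. A broad site 9.13 kb past the start (chr11:101990318-101993123) was called in treated KO cells, with 12.7 and 15.01, and in untreated Rescue cells, with 24.8 and 31.5. Next to it, 7.98 kb past the start, a peak of treated Rescue cells was called with 23.1 and 24.1. Treated WT cells and both KO lists had no deposited peak there. Uncalled peaks lay there in untreated WT cells, with 12.2 and 13.9 (global IDR of 0.0564), and in untreated Rescue cells, with 5.15 and 7.82. These 4 sites were picked out after their values were seen.

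BIRC3 and BIRC2 differed from YAP1 in this respect. Past its start, the BIRC3 body held 2 uncalled H3K27Ac peaks, both in treated WT cells, and no cohesin peak. Past its own start, the BIRC2 body held no H3K27Ac peak in any list. It did hold a PDS5A site 19.6 kb past the BIRC2 start (chr11:102237549-102238695), picked out after its values were seen, which was called in untreated Rescue cells with 24.9 and 22.9 and in treated Rescue cells with 26.6 and 11.4, and uncalled in treated WT cells with 15.4 and 11.6. RAD21 was deposited there only in untreated KO cells, uncalled, with 5.02 and 6.88. Exons and introns were not assigned, since no GRCh37 annotation was used here.

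**Figure D2:**
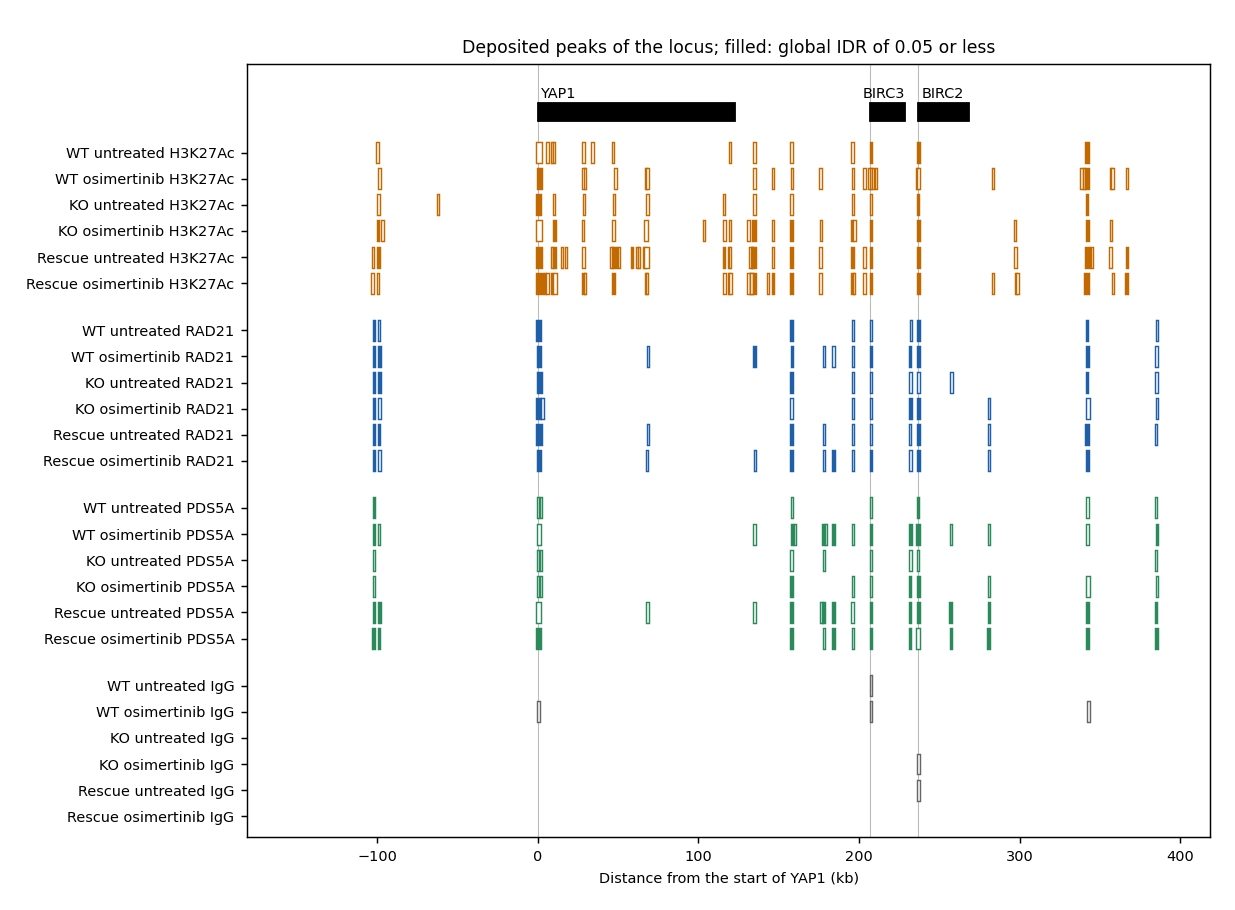
Each row is a peak list and each box a deposited peak, placed by its distance in kb from the start of YAP1 (filled, global IDR of 0.05 or less), with the 3 genes as black bars. H3K27Ac boxes fill the YAP1 body, with 52 peaks past its start. RAD21 and PDS5A boxes gather at the 3 gene starts and at sites outside these 3 genes. Past the starts they also lie at 1 site in the YAP1 body and 1 site in the BIRC2 body.

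Outside these 3 genes, the sites with the most calls were shared by H3K27Ac and cohesin. Starts of neighbouring genes were not placed, so a site described here may lie at one of them. In RefSeq the next protein-coding gene past BIRC2 is TMEM123. The site past the end of BIRC2 by 72.2 kb (chr11:102321618-102324906) was the only one with H3K27Ac called in all 6 lists. Its H3K27Ac replicates gave 23.5 and 18.9 in untreated WT, 17.9 and 22.7 in treated WT, 14.8 and 17.99 in untreated KO, 19.5 and 19.6 in treated KO, 30.9 and 39.3 in untreated Rescue, and 38.3 and 41.6 in treated Rescue cells. RAD21 was called there in 5 of 6 lists, all but treated KO, and PDS5A in both Rescue lists alone. An uncalled IgG peak of treated WT cells also lay at this site, with 6.13 and 4.55.

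Between YAP1 and BIRC3, 47.9 kb before the BIRC3 start (chr11:102138328-102140331), 12 lists had a call. H3K27Ac was called in treated KO cells and both Rescue lists, RAD21 in all lists but treated KO, and PDS5A in treated WT, treated KO and both Rescue lists. RAD21 replicates gave 50.4 and 22.1 in untreated WT, 42.6 and 16.9 in treated WT, 30.3 and 23.2 in untreated KO, 10.4 and 29.6 in treated KO, 52.2 and 38.5 in untreated Rescue, and 71.1 and 41.7 in treated Rescue cells. The treated KO peak was close to a call, with a global IDR of 0.056. Nearer the end of YAP1, 71.0 kb before BIRC3 (chr11:102114485-102117137), H3K27Ac was deposited in all 6 lists and called in treated KO, with 19.03 and 22.7, in untreated Rescue, with 42.3 and 38.6, and in treated Rescue cells, with 33.9 and 29.7. RAD21 was deposited at that site only under osimertinib, in treated WT cells, where it was called with 25.7 and 15.6, and in treated Rescue cells, uncalled, with 7.20 and 10.7.

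Before YAP1, 102 kb from the gene start, lay the site of the locus with the most RAD21 and PDS5A calls, 10 in all (chr11:101877491-101879343). RAD21 was called there in all 6 lists, with 75.0 and 25.2 in untreated WT, 84.4 and 51.4 in treated WT, 44.4 and 31.5 in untreated KO, 33.8 and 28.5 in treated KO, 119 and 49.2 in untreated Rescue, and 68.9 and 30.6 in treated Rescue cells. PDS5A was deposited in all 6 lists and called in both WT and both Rescue lists. In KO cells it was uncalled, with 10.8 and 10.4 untreated and 10.7 and 22.5 treated, and the treated peak, at a global IDR of 0.052, was just outside the limit. H3K27Ac appeared only in the 2 Rescue lists, uncalled. The neighbouring site, 98.5 kb before YAP1 (chr11:101880559-101882697), held H3K27Ac in all 6 lists, called in treated KO and untreated Rescue cells. RAD21 was also deposited there in all 6 lists, and was called in treated WT, untreated KO and untreated Rescue cells. PDS5A was called in both Rescue lists and uncalled in treated WT cells, with 14.1 and 7.80. It was absent from untreated WT cells and from both KO lists. Among all RAD21 sites of the lists, 3.9% were called in all 6 lists, and 2 of the 16 in the locus were, the site 102 kb before YAP1 and the YAP1 start. For H3K27Ac it was 1 of 47 sites (2.09% over all sites) and for PDS5A 0 of 19 (0.983%).

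Sites of the locus recurred across lists to a different degree for each antibody. Peaks in all 6 lists were found at 9 of 16 RAD21 sites (21.9% over all sites), 6 of 19 PDS5A sites (13.3%) and 10 of 47 H3K27Ac sites (19.6%). Peaks in a single list made up 1 of 16 RAD21 sites (37.2%), 4 of 19 PDS5A sites (32.8%) and 20 of 47 H3K27Ac sites (43%). A call in at least 1 list was found at 10 of 16 RAD21 sites (44.2%), 13 of 19 PDS5A sites (43.2%) and 17 of 47 H3K27Ac sites (31.1%). RAD21 sites were thus the ones that recurred most, and H3K27Ac sites were near the share over all sites.

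Cohesin without H3K27Ac marked 8 of the 54 sites, H3K27Ac without cohesin 35, and 11 sites had both. Between BIRC3 and BIRC2, 4.60 kb before the BIRC2 start (chr11:102212146-102213368), RAD21 was deposited in all 6 lists and called under osimertinib in WT and KO cells. PDS5A was called at that site in 4 lists, with 16.6 and 17.8 in treated WT, 12.1 and 21.7 in treated KO, 28.5 and 23.6 in untreated Rescue, and 28.7 and 12.1 in treated Rescue cells. It had no peak in untreated WT cells and was uncalled in untreated KO cells, with 5.32 and 15.4. Apart from peaks counted at the BIRC2 start, the gap between these genes held no H3K27Ac peak in any list. At 116 kb past the end of BIRC2 (chr11:102365470-102367340), a site chosen after its values were seen, PDS5A was deposited in all 6 lists and called in treated WT and both Rescue lists, while RAD21 was deposited in 5 lists and called in none.

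The site 22.98 kb before BIRC3 (chr11:102164634-102165206) had PDS5A in 3 of the 6 lists. It was called in treated WT cells with 17.9 and 19.2, in untreated Rescue cells with 45.9 and 33.1 and in treated Rescue cells with 38.3 and 14.1. PDS5A was deposited in neither untreated WT nor either KO list, and H3K27Ac was deposited in no list. RAD21 was called in treated Rescue cells with 22.6 and 9.55 and was uncalled in treated WT cells with 14.7 and 11.7. This pattern, written down after the values were seen, held for 1 of 19 PDS5A sites of the locus and for 293 of 44465 PDS5A sites, or 0.659%, in all lists. The 3 PDS5A lists without it were also the shortest, with 14395 peaks in untreated WT, 9232 in untreated KO and 18352 in treated KO cells, and their part in this pattern was not tested. For RAD21 the same pattern held for 0 of 16 sites of the locus (0.213% of all sites) and for H3K27Ac for 0 of 47 (0.00147%). A PDS5A site 28.3 kb before BIRC3 (chr11:102158393-102159921) met only part of it. That site was called in treated WT cells with 26.2 and 26.3 and in untreated Rescue cells with 31.7 and 23.2. Its peak was uncalled in treated Rescue cells, with 40.6 and 6.49, and untreated KO cells had an uncalled peak with 10.6 and 13.5.

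**Figure D3:**
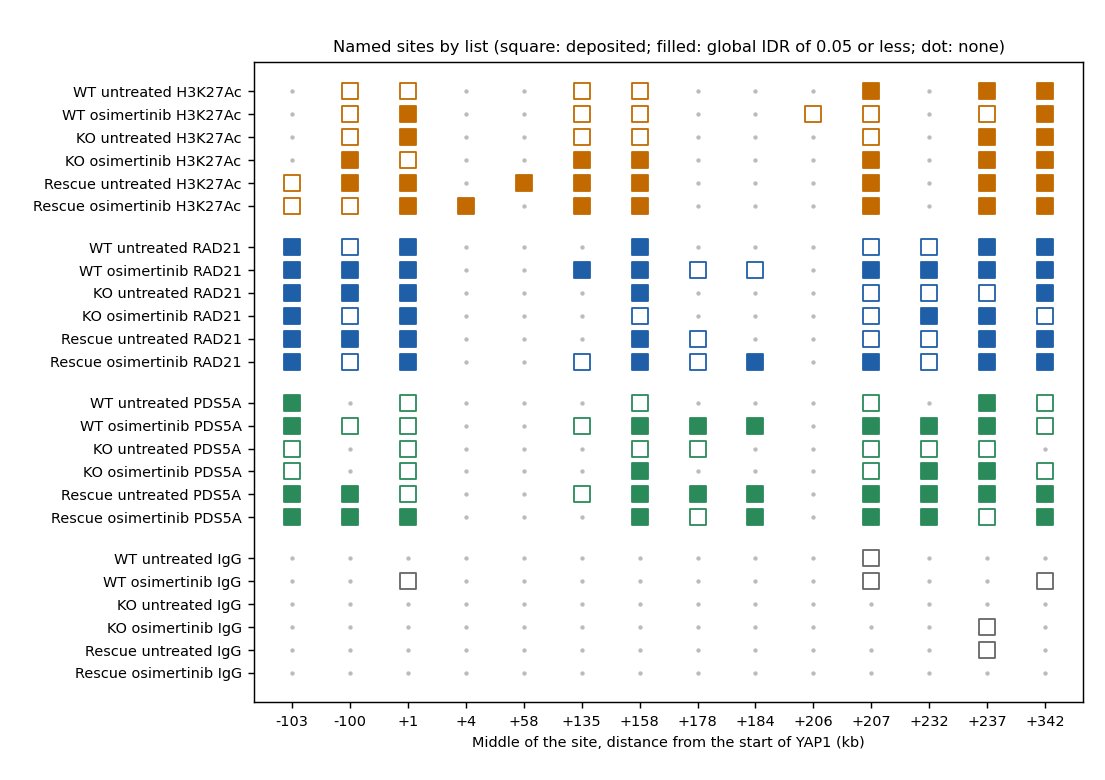
The 14 named sites are columns, ordered by the distance of their middle from the start of YAP1 in kb, and the lists are rows (filled square, called; open square, deposited and uncalled; dot, no peak). RAD21 is filled in all 6 lists in 2 columns, and the PDS5A column at 184 kb is filled in treated WT and both Rescue lists only.

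Over the whole locus, H3K27Ac peaks numbered 15 in untreated WT, 26 in treated WT, 14 in untreated KO, 22 in treated KO, 34 in untreated Rescue and 34 in treated Rescue cells, of which 3, 2, 3, 8, 13 and 13 were called. Of the whole H3K27Ac lists, 22.6%, 23.1%, 23.2%, 21.7%, 36.6% and 29.3% were called. RAD21 peaks numbered 10, 14, 11, 12, 13 and 14 in the same order, of which 5, 9, 5, 4, 6 and 7 were called, where 23.8%, 42.9%, 28.2%, 24.7%, 37.2% and 42.2% of the whole lists were called. PDS5A peaks numbered 8, 17, 9, 11, 17 and 14, of which 2, 8, 0, 3, 12 and 11 were called, against 12.2%, 36.1%, 9.87%, 22.3%, 41.8% and 42.2% of the lists. H3K27Ac counts were highest in Rescue cells and RAD21 counts varied least. IgG held 1, 3, 0, 1, 1 and 0 peaks, none called, against 0.946%, 4.11%, 4.19%, 1.22%, 1.05% and 3.68% of those lists. The 0 of 9 called PDS5A peaks in untreated KO cells allows a called share of up to 29.9% (Wilson 95% interval, counting error only).

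The question of the design is whether osimertinib and METTL7A change the chromatin of such a region. The locus made up 0.0361% to 0.0678% of a RAD21 list, 0.0489% to 0.0975% of a PDS5A list and 0.0561% to 0.0861% of an H3K27Ac list. Under osimertinib the H3K27Ac share of the locus was lower in all 3 genotypes, by a log2 ratio of -0.21 in WT, -0.11 in KO and -0.20 in Rescue cells. The mean of -0.17 ± 0.05 (SD, n = 3 genotypes) was tested by flipping signs over genotypes (exact permutation test, two-sided), with p = 0.25, the smallest p that 3 genotypes allow, and 0.5 after Benjamini-Hochberg adjustment over 4 antibodies. The raw counts went the other way or stayed level, from 15 to 26, from 14 to 22 and from 34 to 34, while the lists grew from 22625 to 44124, from 23681 to 39192 and from 39505 to 45234 peaks.

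For the RAD21 share the log2 ratios were -0.88 in WT, 0.22 in KO and 0.01 in Rescue cells, with a mean of -0.22 ± 0.58 (SD, n = 3 genotypes, exact p = 1, adjusted p = 1). The lowest ratio was that of WT cells, whose RAD21 list grew from 15525 to 38829 peaks while the locus went from 10 to 14, that is, from 0.0644% (Wilson 95% interval 0.0350% to 0.119%) to 0.0361% (0.0215% to 0.0605%) of the list. Without WT cells the mean was 0.11, and at an IDR limit of 0.01 it was -0.87 (exact permutation p = 0.25). For the PDS5A share the ratios were -0.27 in WT, -0.73 in KO and 0.04 in Rescue cells, with a mean of -0.32 ± 0.39 (SD, n = 3 genotypes, exact p = 0.5, adjusted p = 0.667). At an IDR limit of 0.01 that mean was -1.23 (exact permutation p = 0.25), and within the gene bodies -0.74 (p = 0.5). IgG held 0 to 3 locus peaks per list, too few for a ratio: in KO cells it went from 0 of 167 to 1 of 2703 peaks, and the 1 added to each count turned this into a log2 ratio of -3.02. No direction is read from IgG. No share of RAD21, PDS5A or H3K27Ac peaks passed the test, which could not have reached 0.05 with 3 genotypes.

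Set beside 600 kb windows over chromosomes 1 to 22 and X that held 20 or more peaks in the pair of lists, the WT RAD21 ratio was low, as 93.9% of 950 windows were at or above it. RAD21 in KO cells, with 31.0% of windows at or above, and in Rescue cells, with 57.1%, did not share this. The KO PDS5A ratio was low too, with 94.6% of 294 windows at or above it, against 62.1% in WT and 62.6% in Rescue cells. The H3K27Ac ratios were nearer the middle, with 56.7% of windows at or above the locus in WT, 57.1% in KO and 75.7% in Rescue cells. These are descriptions, since windows are not replicates.

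Between genotypes, none of the 18 ratios of locus shares had an interval that left out 0. The largest differences were PDS5A in untreated Rescue over KO cells, with a log2 ratio of -1.02 (95% interval -2.13 to 0.10), and RAD21 in treated KO over WT cells, with 0.93 (-0.14 to 1.999). The higher H3K27Ac counts of Rescue cells came to log2 share ratios of 0.48 (-0.39 to 1.36) over KO and 0.33 (-0.53 to 1.18) over WT untreated, and 0.40 (-0.36 to 1.158) over KO and 0.34 (-0.39 to 1.06) over WT under osimertinib. All 4 were above 0 and none was larger than its counting error. They depended on the IDR limit: on called peaks, treated Rescue over WT was 1.85, on 13 against 2 peaks, and treated Rescue over KO was -0.000617. Untreated Rescue over WT was -0.20 at an IDR limit of 0.01. Each group had 1 list, so genotypes were compared without a p-value, and the intervals cover counting error only.

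Called peaks of the locus that had no deposited counterpart in the list compared were few. In WT cells treated with osimertinib these were 3 of 8 PDS5A peaks (36.3% over the list), 1 of 9 RAD21 peaks (41.8%) and 0 of 2 H3K27Ac peaks (25.2%). The PDS5A peaks were those 28.3 kb and 22.98 kb before BIRC3 and 4.60 kb before BIRC2, and the RAD21 peak was that 71.0 kb before BIRC3. In treated KO cells 0 of 4 called RAD21 peaks (3.48%), 0 of 3 called PDS5A peaks (26.8%) and 0 of 8 called H3K27Ac peaks (8.94%) were without a counterpart. In treated Rescue cells there was 1 of 7 for RAD21 (5.34%), 0 of 11 for PDS5A (1.28%) and 1 of 13 for H3K27Ac (2.08%). In the reverse direction, called before treatment with no treated counterpart, there were 0 of 3 H3K27Ac peaks in WT (2.21%) and 0 of 3 in KO cells (0.546%). For RAD21 there were 0 of 5 in WT (0.786%), 0 of 5 in KO (7.51%) and 0 of 6 in Rescue cells (4.88%). For PDS5A there were 0 of 2 in WT (0.626%) and 0 of 12 in Rescue cells (8.52%), and untreated KO cells had no called PDS5A peak in the locus (1.76%). The single such peak was an H3K27Ac peak 57.8 kb past the YAP1 start, called in untreated Rescue cells with 15.3 and 14.2 and absent from the treated list (1 of 13, 2.23% over the list). The new H3K27Ac peak of treated Rescue cells lay 3.65 kb past the YAP1 start, with 10.9 and 12.3 and a global IDR of 0.0485, just inside the limit. The WT share for PDS5A was near that of its list, so it says nothing particular about the locus.

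Rescue cells were next compared with KO cells. Of the called PDS5A peaks, 5 of 12 in untreated Rescue cells had no KO counterpart (51.7% over the list), and 3 of 11 in treated Rescue cells (17.9%). For H3K27Ac these were 2 of 13 untreated (18.7%) and 3 of 13 treated (4.01%), the latter being a peak 7.98 kb and a peak 3.65 kb past the YAP1 start and a peak 97.8 kb past the end of BIRC2. Of RAD21 in treated Rescue cells, 1 of 7 had no counterpart (14.2%), the site 22.98 kb before BIRC3. Of RAD21 in untreated Rescue cells, 0 of 6 had none (11%). In the other direction, every called KO peak of the locus had a Rescue counterpart. Those without one were 0 of 3 H3K27Ac (0.146%) and 0 of 5 RAD21 peaks (1.25%) untreated, and 0 of 4 called RAD21 peaks (0.64%), 0 of 3 called PDS5A peaks (0.342%) and 0 of 8 called H3K27Ac peaks (0.681%) treated. Untreated KO cells had no called PDS5A peak to compare (0.11%).

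Treated KO cells had 1 of 8 called H3K27Ac peaks with no WT counterpart (5.05%), 9.13 kb past the YAP1 start, and treated WT cells had 2 of 8 PDS5A (26.9%) and 1 of 9 RAD21 peaks (34.3%) with no KO counterpart. In treated cells 0 of 2 H3K27Ac peaks of WT lacked a KO counterpart (15.2%), and 0 of 4 RAD21 (0.892%) and 0 of 3 PDS5A peaks (1.03%) of KO lacked one in WT. In untreated cells none differed this way. These were 0 of 5 called RAD21 peaks (2.49%), 0 of 2 called PDS5A peaks (13.4%) and 0 of 3 called H3K27Ac peaks (1.74%) of WT, and 0 of 3 H3K27Ac (1.42%) and 0 of 5 RAD21 peaks (11.1%) of KO cells, whose PDS5A list had no called peak in the locus (3.4%).

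The percentage of locus peaks called was set beside that of each whole list, antibody by antibody. For RAD21 the percentage called was above that of the whole list in 6 of 6 conditions, by 15.03 ± 7.76 points (SD, n = 6, range 7.81 to 26.2). Flipping signs over conditions (exact permutation test, two-sided) gave p = 0.03125, the smallest it allows, and 0.09375 after adjustment over 3 antibodies, so it did not pass at 0.05. With peaks on an IgG peak left out the RAD21 difference was 8.25 points (exact permutation p = 0.09375), and with the interval widened by 600 kb on each side 6.29 points (p = 0.15625). In these tests the 6 conditions came from 1 cell line and largely repeated the same positions. For RAD21, 9 of 16 sites had a peak in all 6 lists, so the conditions were not independent. For PDS5A the mean difference was 14.0 ± 16.6 points (SD, n = 6, range -9.87 to 36.4), above in 5 of 6 conditions, with exact p = 0.09375 and adjusted p = 0.140625. The exception was untreated KO cells. For H3K27Ac it was 0.909 ± 10.4 points (SD, n = 6, range -15.5 to 14.6), above in 3 of 6 conditions, with exact p = 0.9375 and adjusted p = 0.9375. The lowest H3K27Ac value was that of treated WT cells, where 2 of 26 peaks were called. In that list the first replicate was below the second, by a median log2 ratio of -0.45 over all peaks and -0.64 in the locus, and the part of this imbalance in the calls was not tested.

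**Figure D4:**
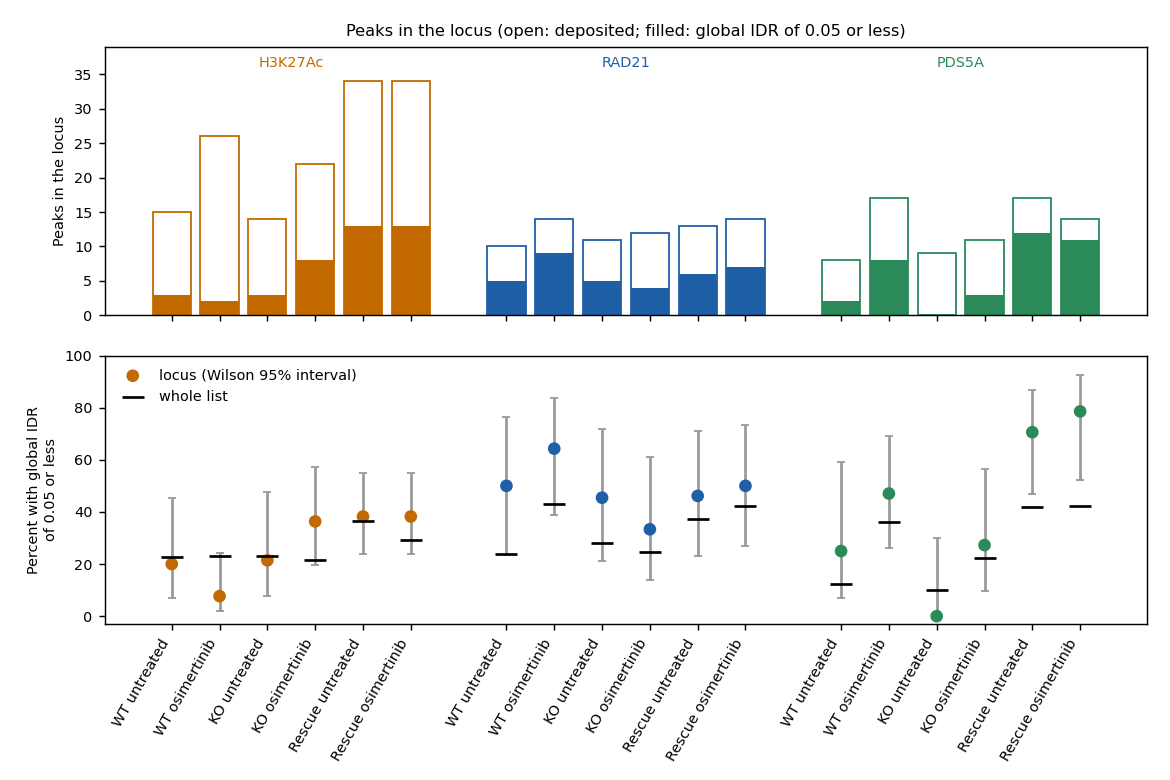
The upper panel shows the number of locus peaks per list as open bars, with the called peaks filled, and the lower panel the percentage of locus peaks called (points, Wilson 95% intervals) beside that of the whole list (black bars). RAD21 points lie above the black bars in 6 of 6 conditions, PDS5A in 5 and H3K27Ac in 3, and all intervals but those of PDS5A in Rescue cells reach the bars.

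The locus was peak-rich beside other windows of its length. Of 4400 windows, 4.91% to 12.9% held as many H3K27Ac peaks (median over the 6 lists 10.9%), 7.43% to 23.3% as many RAD21 peaks (median 11.4%) and 4.27% to 13.95% as many PDS5A peaks (median 12.2%). Among called peaks this did not hold in every list. Treated WT cells had 2 called H3K27Ac peaks, which 42.8% of windows matched or passed, and untreated KO cells had 0 called PDS5A peaks. In both Rescue lists, 4.91% and 4.41% of windows held as many called H3K27Ac peaks. Windows are not replicates, so this rank only describes the locus.

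RAD21 and PDS5A peaks of the locus mostly lay together when all deposited peaks were counted. Of the 76 PDS5A peaks, 65 (85.5%, Wilson 95% interval 75.9% to 91.7%) overlapped a RAD21 peak of the same genotype and treatment, against 75.2% over the lists. In the reverse direction, 62 of 74 RAD21 peaks did (83.8%, 73.8% to 90.5%), against 72.9%. Among called peaks both shares were 55.6%. H3K27Ac peaks overlapped RAD21 in 50 of 145 cases (34.5%, 27.2% to 42.5%), against 40.9% over the lists, and 52 of the 145 lay in the YAP1 body. RAD21 overlapped H3K27Ac in 67.6% of peaks (63.0% over the lists) and PDS5A in 59.2% (58.0%), and among called peaks these were 47.2% and 33.3%. An IgG peak of any list lay on 32.4% of the RAD21 peaks (29.7% over the lists), 30.3% of the PDS5A peaks (27.8%) and 16.6% of the H3K27Ac peaks (20.7%). Among called peaks these were 50% for RAD21, 27.8% for PDS5A and 45.2% for H3K27Ac. All IgG overlap was at the 3 gene starts and the site 72.2 kb past the end of BIRC2. Peaks of a site recur in several lists, so these intervals count the same positions more than once.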

How the data were processed

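CUT&RUN was measured in PC9 cells of 3 genotypes, untreated or under osimertinib, with 2 replicates per group. Per the submitters' processing notes the build was GRCh37 and the tools included MACS2 2.2.7.1, Bowtie2 2.4.2, deepTools 3.5.1, Trimmomatic, bedtools 2.30, FastQC and SAMtools 1.16. How they were chained, the control and threshold of MACS2, and the IDR version are not given in the sources used here. The deposited values are the −log10 p of each replicate and the −log10 of the IDR, computed by the authors. Each list joins both replicates and holds only matched peaks, so a peak missing from a list may still exist in 1 replicate. Every deposited value of −log10 p was at least 3.00, and 90 mitochondrial and other peaks outside chromosomes 1 to 22 and X were left out. Depth per sample is unknown.

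Peaks overlapping the 600 kb interval by 1 bp or more were taken, and overlapping peaks of all lists were merged into sites. The share of a list's peaks in the locus, with 1 added to each locus count, was compared as a log2 ratio. Exact sign-flip permutation tests ran over 3 genotypes or 6 conditions, with Benjamini-Hochberg adjustment over antibodies. Shares carry Wilson 95% intervals, and intervals of ratios and shares cover counting error only.

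Sites named were those within 1 kb of a gene start, the 10 with the most lists holding a called peak, those called in 1 treatment with no deposited peak in the other, and those with an IgG peak. Further sites are named as chosen after their values were seen. The members, lists and rules were chosen with earlier results of these data known. Alternatives were IDR limits, gene bodies only, a wider interval, IgG peaks left out, covered length, the added count, the overlap required, 5 kb around starts and each genotype left out. Exon annotation and lists of Hippo and apoptosis genes were not used here, since no GRCh37 annotation was given. RefSeq promoters matched 3 of 3 genes. Scripts ran in Python 3.11.15 with scipy 1.17.1, pandas 2.3.3, matplotlib 3.10.9 and numpy 2.4.6. The overlap code was tested on simulated data: of 1000 simulated regions it made 0 wrong calls.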

Additional observations from a re-analysis of the deposited data

Results flagged for a closer look

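The change of the locus share under osimertinib had opposite signs between genotypes in 4 pairs, each with 1 list per group, so none of these differences was tested. For RAD21 the log2 ratio was -0.88 in WT, 0.22 in KO and 0.01 in Rescue cells, a difference of -1.09 for WT minus KO and of -0.88 for WT minus Rescue. For PDS5A it was -0.27 in WT, -0.73 in KO and 0.04 in Rescue cells, a difference of -0.32 for WT minus Rescue and of -0.77 for KO minus Rescue. The Rescue values lay close to 0 in both cases, and the counts behind them were 13 and 14 RAD21 peaks and 17 and 14 PDS5A peaks.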

How the results depend on the processing

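Of 196 alternatives, 18 moved a value past its counting interval or by more than the spread between lists. A change of sign was found in 16, of which 14 were among the 108 alternatives for genotype ratios, in 10 ratios whose intervals included 0. The RAD21 locus share under osimertinib reversed to a log2 ratio of 0.11 without WT cells, and the means that left out 1 genotype ranged from -0.43 to 0.11 for RAD21, from -0.20 to -0.15 for H3K27Ac, from -0.50 to -0.11 for PDS5A and from -2.43 to -1.31 for IgG, whose ratios are set by the added count. With peaks on an IgG peak left out, H3K27Ac peaks of the locus were called less often than the list, by -3.53 points (exact permutation p = 0.5, n = 6). At an IDR limit of 0.05 the log2 share ratio became 1.85 for H3K27Ac in treated KO over WT, 1.85 in treated Rescue over WT and -0.64 for PDS5A in untreated KO over WT. At 0.01 it was 0.87 for H3K27Ac and 1.90 for PDS5A in treated KO over WT, and 1.64 for PDS5A in treated Rescue over WT. These rest on 0 to 13 peaks. The share of windows as rich as the locus rose, for an interval widened by 600 kb on each side, to 25.8% for H3K27Ac, 26.9% for RAD21 and 24.7% for PDS5A. It was 4.57% for RAD21 and 36.1% for PDS5A at an IDR limit of 0.01, and 8.45% for PDS5A by covered length. Among called peaks only, PDS5A overlapped RAD21 in 55.6%, RAD21 overlapped PDS5A in 55.6% and H3K27Ac in 47.2%, and PDS5A overlapped H3K27Ac in 33.3%. An IgG peak lay on 45.2% of called H3K27Ac and 50% of called RAD21 peaks. The cause of these shifts was not tested. Fewer peaks enter at a stricter limit. Gene bodies alone were not run against other windows. No paired analysis was possible because no column says which replicate value belongs to which numbered sample, and each peak carries a single IDR for both replicates. Depth per sample is unknown, so a peak missing from a short list cannot be told apart from one below detection.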
